A study of Mus musculus with 39 samples.

Results

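Pdgfra nEnd cells carried a peak of at least 1 of 4 histone marks at 5445 of 21911 protein-coding promoters, and all but 95 of these promoters carried a single mark. The combinations were read from the 12 Pdgfra peak lists of a series of 36. A promoter was the window that begins 1 kb before the annotated gene start and ends 100 bp after it (GRCm38). It was given a mark when at least 2 of the 3 Pdgfra libraries of that mark had a peak there. nEnd is a naive extra-embryonic endoderm culture made here from the OCT4-mCherry mouse embryonic stem cell line, a single reporter line, which was differentiated and expanded in RPMI medium with Activin A, CHIR99021 and LIF (RACL medium). The cells had no further treatment and were separated by FACS on OCT4-mCherry and PDGFRA-APC into Oct4, double-positive (DP) and Pdgfra populations. H3K4me1, H3K27ac, H3K27me3 and H3K9me3 were profiled in each population by CUT&Tag, in which an antibody brings a transposase to the mark, with 3 replicates. The study describes its replicates as biological, and the sources used here do not say what separated them (cultures, passages or sorts), so a p-value measures the spread between these samples.

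H3K27ac is laid down by acetyltransferases at active promoters and enhancers. H3K27me3 is written on the same lysine by Polycomb repressive complex 2 and marks silenced developmental genes, and a given lysine cannot carry both. H3K4me1 is best known from enhancers and usually flanks, rather than covers, active gene starts. H3K9me3 marks heterochromatin, repeats, silenced germline genes and the methylated allele of imprinted control regions. Extra-embryonic endoderm, the source of the yolk sac, secretes basement membrane and takes up maternal nutrients by endocytosis, under transcription factors such as GATA6, GATA4, SOX17, SOX7 and FOXA2.

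Of the 16 possible sets, 10 were found. No mark was called at 16466 promoters (75.1% of 21911). H3K27ac alone was the commonest mark set, with 3937 promoters (18.0%). H3K27me3 alone followed with 1170 promoters (5.34%), and H3K9me3 alone with 195 (0.890%). H3K4me1 was called at few gene starts. It lay together with H3K27ac at 75 promoters (0.342%) and stood alone at 48 (0.219%), and without H3K4me1 replicate 3 these counts were 9 and 5. The number of promoters with 2 or more marks depended on the settings. It was 95 here, 25 without that library, 1237 with a peak in any 1 of 3 libraries and 343 with any annotated transcript start. The remaining 20 promoters held H3K27ac + H3K9me3 (11), H3K4me1 + H3K27me3 (4), H3K27ac + H3K27me3 (3) or H3K27me3 + H3K9me3 (2), and no promoter held 3 or 4 marks. Counted by mark, H3K27ac was called at 4026 promoters (18.4%), H3K27me3 at 1179 (5.38%), H3K9me3 at 208 (0.949%) and H3K4me1 at 127 (0.580%). A promoter with no listed peak can still carry the mark, because the lists hold only peaks called against IgG and the depth of the libraries is unknown.

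**Figure D1:**
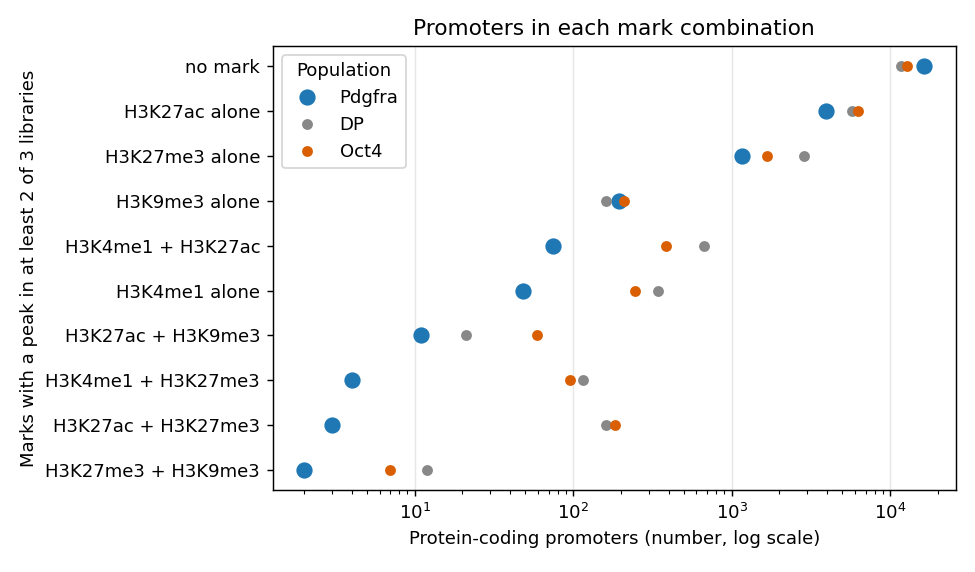
Number of protein-coding promoters (log axis) in each mark combination found in Pdgfra cells, for the Pdgfra, DP and Oct4 populations. In Pdgfra cells the single-mark sets hold most marked promoters, and the mixed sets other than H3K4me1 + H3K27ac hold 11, 4, 3 and 2.

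The bases just before the gene start are shown for the top-ranked gene of each larger combination, and for Peg3 of the H3K27ac + H3K9me3 set, because the combinations differed in CpG content. Each run covers the 250 bases upstream of the gene start on the gene's own strand in GRCm38, read from the RefSeq genome, with each CpG in capitals. They lie at chr5:142817663-142817912 (minus strand, Tnrc18), chr16:35540895-35541144 (plus, Sema5b), chr11:120762544-120762793 (plus, Hmga1b), chr9:107567695-107567944 (plus, Hyal2), chr7:27447728-27447977 (plus, Blvrb) and chr7:6730432-6730681 (minus, Peg3). By the GENCODE annotation all 6 precede the first exon of their gene. The Peg3 run also covers the first bases of exon 1 of its divergent neighbour Usp29 and of the small RNA gene Gm27675, the Hyal2 run lies in an intron of the antisense transcript Gm9917, and the other 4 lie between genes. The number of CpG was 20 for Tnrc18 (H3K27ac alone), 10 for Sema5b (H3K27me3 alone), 4 for Hmga1b (H3K9me3 alone), 3 for Hyal2 (H3K4me1 + H3K27ac), 18 for Blvrb (H3K4me1 alone) and 8 for Peg3.
Tnrc18: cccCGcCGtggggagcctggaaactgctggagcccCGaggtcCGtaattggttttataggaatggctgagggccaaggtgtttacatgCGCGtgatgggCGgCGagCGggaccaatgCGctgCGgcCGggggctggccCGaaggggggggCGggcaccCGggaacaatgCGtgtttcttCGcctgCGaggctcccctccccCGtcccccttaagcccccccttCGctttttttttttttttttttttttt
Sema5b: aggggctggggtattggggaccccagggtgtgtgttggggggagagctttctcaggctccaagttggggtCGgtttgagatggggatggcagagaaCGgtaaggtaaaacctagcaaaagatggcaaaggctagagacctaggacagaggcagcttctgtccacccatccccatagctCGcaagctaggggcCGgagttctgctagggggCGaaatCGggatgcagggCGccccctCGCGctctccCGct
Hmga1b: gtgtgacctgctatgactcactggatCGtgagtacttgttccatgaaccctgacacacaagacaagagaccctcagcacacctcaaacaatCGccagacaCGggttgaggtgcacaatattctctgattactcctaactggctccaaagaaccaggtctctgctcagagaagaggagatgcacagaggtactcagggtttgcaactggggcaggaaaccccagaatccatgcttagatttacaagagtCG
Hyal2: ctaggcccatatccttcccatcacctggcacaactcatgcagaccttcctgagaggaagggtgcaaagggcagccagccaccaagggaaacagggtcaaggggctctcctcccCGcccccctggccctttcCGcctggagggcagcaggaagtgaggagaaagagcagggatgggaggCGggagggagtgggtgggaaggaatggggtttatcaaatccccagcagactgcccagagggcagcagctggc
Blvrb: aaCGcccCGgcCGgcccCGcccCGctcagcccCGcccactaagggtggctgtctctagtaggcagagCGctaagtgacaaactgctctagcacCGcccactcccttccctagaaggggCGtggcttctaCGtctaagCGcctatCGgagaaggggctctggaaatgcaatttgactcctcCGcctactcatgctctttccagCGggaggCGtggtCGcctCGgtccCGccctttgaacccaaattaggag
Peg3: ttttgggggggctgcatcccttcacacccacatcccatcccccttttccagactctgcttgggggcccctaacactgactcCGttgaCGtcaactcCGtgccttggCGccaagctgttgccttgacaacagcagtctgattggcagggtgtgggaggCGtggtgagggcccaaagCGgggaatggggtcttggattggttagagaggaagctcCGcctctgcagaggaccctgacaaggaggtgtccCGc

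The marks differed in how often, and where, they met a gene start. A peak was listed at 3489, 4970 and 4045 promoters in the 3 H3K27ac libraries (19.0% ± 3.41 of all promoters, SD, n = 3). The H3K27me3 libraries reached 458, 1078 and 2912 promoters (6.77% ± 5.82), the H3K4me1 libraries 109, 65 and 1560 (2.64% ± 3.88), and the H3K9me3 libraries 514, 107 and 251 (1.33% ± 0.942). All 3 H3K27ac libraries lay above all 9 others. The 4 marks differed in this share (exact permutation test of the F statistic over all assignments of the 12 libraries, p = 0.00649, adjusted p = 0.00812 over 5 tests). The H3K9me3 lists were long, at 29970, 5322 and 13110 peaks, but only 1.63 to 1.80% of their peaks met a promoter, against 57.9 to 67.1% of H3K27ac, 36.3 to 42.2% of H3K27me3 and 5.49 to 13.3% of H3K4me1 peaks.

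**Figure D2:**
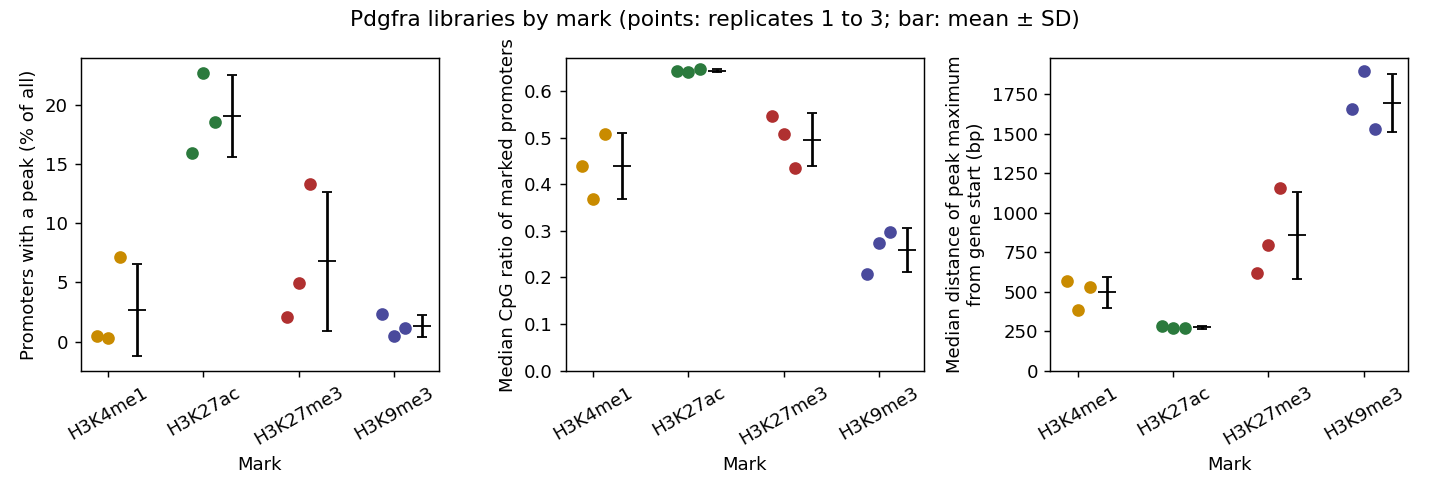
Values of the 12 Pdgfra libraries by mark: percent of all protein-coding promoters with a peak, median CpG ratio (observed over expected) of those promoters, and median distance in bp from the gene start to the peak maximum. Points are replicates 1 to 3 and bars are the mean ± SD. The H3K27ac libraries sit together near 0.644 in CpG ratio and 274 bp in distance.

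The maximum of a promoter peak lay closest to the gene start for H3K27ac and farthest for H3K9me3. The median distance was 285, 268 and 269 bp in the H3K27ac libraries, 570.5, 386 and 530.5 bp for H3K4me1, 617, 795 and 1157 bp for H3K27me3, and 1658, 1895 and 1533 bp for H3K9me3. The ranges of the 4 marks did not overlap (exact permutation test, p = 6.49e-05, the smallest these assignments can give, adjusted p = 0.000325). The median width of promoter peaks did not separate the marks (exact permutation test, p = 0.382). It was 2604 to 4284 bp for H3K27ac and 2339 to 9030 bp for H3K27me3, where replicate 3 was the widest. Without H3K27me3 replicate 1 the exact permutation test gave an adjusted p of 0.0389 for width.

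The lists differed in length within a mark, and this set which promoters could be called. Replicate 3 held 10620 of the H3K4me1 peaks against 1723 and 1074, and 6151 of the H3K27me3 peaks against 1143 and 2841. Of the called promoters, 2764 of 4026 had H3K27ac in all 3 libraries (68.7%). The same share was 36.5% for H3K9me3 (76 promoters), 28.6% for H3K27me3 (337) and 11% for H3K4me1 (14). Just outside the rule, a further 1688 promoters had H3K27ac in a single library, 1753 had H3K27me3, 1466 had H3K4me1 and 380 had H3K9me3. Promoters called from 2 libraries were looked up in the library left out. For H3K27ac, 79.5 to 93.2% of them had a peak there, against 15.9 to 22.7% of all promoters. For H3K27me3 the share was 31.6, 75.1 and 100% against 2.09, 4.92 and 13.3% of all promoters, in the order of replicates 1 to 3. For H3K9me3 it was 91.6, 40.2 and 86.4% against 2.35, 0.488 and 1.15%. For H3K4me1 it was 25.5, 16.3 and 100% against 0.497, 0.297 and 7.12%. The H3K27me3 set was thus decided by replicates 2 and 3. Without replicate 2 the number of promoters with H3K27me3 alone was 446 in place of 1170, and without replicate 3 it was 334. H3K9me3 alone stood at 79 promoters without its replicate 1 and 84 without its replicate 3, in place of 195.

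Promoters with H3K27ac alone held genes used by most cells and part of the endoderm programme. Tnrc18, Col4a1, Col4a2, Mnt and Setd1b ranked first by signal, each with a peak in all 3 H3K27ac libraries and no other mark in any Pdgfra library. Col4a1 and Col4a2, the chains of the main basement membrane collagen, face each other across a shared promoter, and the peak over Col4a1 stood at the percentiles 99.5, 99.8 and 99.6 of total signal within the 3 lists. That peak was 14910, 9944 and 14526 bp wide. Mnt, a MAX-binding repressor of MYC targets, stood at 99.6, 99.1 and 99.7, and Setd1b, an H3K4 methyltransferase, at 99.0, 99.8 and 99.4. In all, 2123 named genes met the strict form of the rule.

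Of 25 endoderm genes, 11 (44.0%) carried H3K27ac, against 18.4% of all promoters, and none carried another mark in 2 libraries. H3K27ac was called at 17 of the 25 in DP and 7 in Oct4, against 30.3% and 31.9% of all promoters there. The 11 of Pdgfra included the transcription factor genes Gata6, Gata4, Foxa2 and Sox7, the basement membrane genes Lama1, Lamb1, Col4a1 and Col4a2, the proteoglycan gene Srgn, and Pdgfra itself, whose product was used in the sort. The peak over Gata6, which drives endoderm identity, stood at the percentiles 86.6, 97.3 and 91.4 of the 3 H3K27ac lists. At Pdgfra, the receptor gene, it stood at 58.5, 74.5 and 9.95, so replicate 3 listed it among its weakest peaks. Foxa2 stood at 71.8, 86.5 and 37.2 and Sox7 at 76.9, 80.3 and 80. Gata4 had a peak in replicates 1 and 3 only, at 25.5 and 55.7. The other 14 endoderm genes had no called mark, among them Sox17, Hnf4a, Dab2, Lrp2, Cubn, Amn, Sparc, Ttr and Afp. Cubn, Lrp2 and Amn, which build the receptors for protein uptake, had H3K27ac in a single library each.

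The same 11 endoderm promoters were read in the other populations. All 11 had H3K27ac in DP and 0 had H3K27me3 there, close to the 98.7% and 2.38% of all 4026 promoters with H3K27ac in Pdgfra. In Oct4 cells 4 of 11 had H3K27ac (36.4%), against 88.4% of the 4026, and 8 of 11 had H3K27me3 (72.7%), against 2.51%. Foxa2, Lamb1, Pdgfra and Sox7 were among those with H3K27me3 alone in Oct4, Gata6 had H3K27ac + H3K27me3, and Col4a1 and Col4a2 had H3K4me1 + H3K27ac + H3K27me3. Col4a1 and Col4a2 share a start region, so they are not independent of each other. The genes were chosen as endoderm markers and the populations were sorted on an endoderm protein, so the gate and the marks cannot be told apart in these counts.

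Among general cellular genes, H3K27ac was called at 44 of 76 ribosomal protein promoters (57.9%), 31 of 55 translation initiation factors (56.4%), 15 of 36 NADH dehydrogenase subunits (41.7%), 25 of 78 mitochondrial ribosomal proteins (32.1%) and 10 of 39 proteasome subunits (25.6%), against 18.4% of all promoters. Of 22 endocytosis genes, 13 (59.1%) had H3K27ac, including the clathrin chains Cltc and Cltb, the early endosome regulators Rab5a and Rab5c, and the lysosomal protease genes Ctsb, Ctsd and Ctsl. Of 24 chromatin regulators, 12 (50%) had H3K27ac, including Ezh2, Eed, Suz12 and Jarid2 of Polycomb repressive complex 2 and the acetyltransferase genes Ep300 and Crebbp. No endocytosis gene and no chromatin regulator of these lists had a repressive mark called. Over all promoters H3K27me3 was called at 5.38% and H3K9me3 at 0.949%. Lists of 22 and 24 genes are too short to show a lack against these shares. H3K27ac was called at 4 of 67 replication histone genes (5.97%). Zfp zinc finger genes, with 75 of 391 (19.2%), were at the share of all promoters.

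In the ERK and FGF list 10 of 24 promoters (41.7%) had H3K27ac, against 18.4% of all promoters. No mark was called at 13, where 75.1% of all promoters had none. Those with H3K27ac included the receptor genes Fgfr2 and Fgfr3, the relay genes Grb2, Hras and Map2k2, the feedback inhibitors Dusp4, Dusp6 and Spry2, and the early response gene Egr1. The ligand gene Fgf8 had H3K27me3 alone, at the percentiles 94.1, 70.6 and 93.3 of the H3K27me3 lists. It was the only one of the 24 with H3K27me3 (4.17%, against 5.38% of all promoters). In the BMP, Nodal and TGF-beta list 8 of 24 (33.3%) had H3K27ac and 14 had no mark. The 8 were the BMP receptors Bmpr1a and Bmpr2, the signal transducers Smad2, Smad3 and Smad5, the inhibitors Smad7 and Skil, and the target gene Id3. The ligand gene Bmp7 and the Nodal antagonist gene Lefty2 had H3K27me3 alone (2 of 24, 8.33%, against 5.38% of all promoters). Lefty2 had H3K4me1 alone in DP and H3K4me1 + H3K27ac in Oct4.

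H3K27me3 alone covered regulators of other lineages. It was called at 13 of 20 neural regulators (65.0%), 12 of 19 Wnt ligands (63.2%), 9 of 20 mesoderm regulators (45.0%), 15 of 39 Hox genes (38.5%), 3 of 9 Pax genes (33.3%) and 13 of 44 Fox genes (29.5%), against 5.38% of all promoters. No neural or mesoderm regulator, Wnt ligand or Pax gene of these lists had H3K27ac, against 18.4% of all promoters. The neural genes included Pax6, Neurog1, Neurog2, Olig2, Dlx2, En2, Lhx2 and Six3, and the mesoderm genes T, Mixl1, Gsc, Mesp1, Tal1, Hand2 and Foxf1. At T, the Brachyury gene, H3K27me3 peaks stood at the percentiles 52.3 and 89.5 of replicates 2 and 3, with no peak in replicate 1. At Cdx2, the trophectoderm factor gene, they stood at 51.6 and 74.9 in the same replicates. Potassium channel genes had H3K27me3 at 27 of 92 promoters (29.3%), among them Kcna2, Kcnc1, Kcnd2 and Kcnj11.

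The strongest H3K27me3 promoters were Sema5b, Clec2l, Cabp7, Vax2 and Prrt4. At Sema5b, an axon guidance gene, the peaks reached the percentiles 100, 98.7 and 98.8 and widths of 8606, 7110 and 34350 bp. At Vax2, an eye homeobox gene, the percentiles were 99.7, 99.3 and 96.2. Some promoters shared a domain, so their calls are not independent: 1179 promoters lay in 1100 merged regions. The most crowded, chr6:52174375-52255083, was 80.7 kb long and covered 7 promoters of the Hoxa cluster (Hoxa3, Hoxa5, Hoxa6, Hoxa7, Hoxa9, Hoxa11 and Gm28308). Another region of 45.0 kb, chr2:122276424-122321420, held Duox1, Duox2, Duoxa1 and Duoxa2, which make hydrogen peroxide at the cell surface.

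Trophectoderm and pluripotency genes were set against all promoters, of which 75.1% had no mark, 18.4% had H3K27ac and 5.38% had H3K27me3. Of 25 trophectoderm genes, 14 had no mark, 6 had H3K27ac (among them Ets2, Krt8 and Tead4) and 6 had H3K27me3 (among them Cdx2, Gata2, Tfap2c and Ascl2), with Cldn4 in both counts. Of 25 pluripotency genes, 6 had H3K27ac (Klf4, Lin28a, L1td1, Sall4, Tbx3 and Fbxo15) and 19 had no mark, among them Nanog, Pou5f1, Sox2, Esrrb, Zfp42, Fgf4 and Dppa3. None of the 25 had H3K27me3 or H3K9me3 in 2 libraries, where 5.38% and 0.949% of all promoters did. At Klf4 the H3K27ac peaks stood at the percentiles 94.0, 98.5 and 94.1. Of the 19 pluripotency promoters without H3K27ac in Pdgfra, 14 had it in Oct4 (73.7%), against 3422 of all 17885 promoters without it in Pdgfra.

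H3K9me3 was called at several imprinted genes. Of 24 imprinted genes, 7 (29.2%) had H3K9me3, against 0.949% of all promoters: Igf2, Cdkn1c, Nnat, Nap1l5 and Zrsr1 with H3K9me3 alone, and Peg3 and Usp29 with H3K27ac as well. Igf2, the fetal growth factor gene, stood at the percentiles 99.5, 98.2 and 99.5 of the H3K9me3 lists, and Nnat at 98, 72.6 and 97. The imprinted genes Ascl2 and Kcnq1 had H3K27me3 alone. Of 20 germline genes, Dazl, an RNA-binding protein of germ cells, and Rpl10l had H3K9me3. Olfactory receptors (14 of 1092, 1.28%) and vomeronasal receptors (2 of 326, 0.613%) were near the share of all promoters. Clustered protocadherins (4 of 56) and beta-defensins (3 of 42) both stood at 7.14%. In families used by few tissues, 2 of 53 keratins had H3K27ac, 1 of 33 interleukins had H3K27me3 and 1 of 26 prolactin family genes had H3K9me3, where 75.1% of all promoters had no mark. Rhox genes had no mark at any of 32 promoters, but they lie on the X chromosome, where 2.22% of promoters had one.

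The top H3K9me3 promoters were Hmga1b, Igf2, Slc22a13, Itln1 and Orc2. Hmga1b, a copy of the AT-hook gene Hmga1 whose reads may be shared with it, stood at 99.5, 98.4 and 99.5. Orc2 encodes a subunit of the origin recognition complex, and its peaks of 7256, 6635 and 7297 bp had their maxima 5670, 2525 and 2412 bp from the gene start. A single region of 73.4 kb at the end of chromosome 9, chr9:2999998-3073390, accounted for 9 of the 208 promoters (Gm10715, Gm10717, Gm10718, Gm10719, Gm10720, Gm10721, Gm10722, Gm11168 and Gm17535). These gene models are near-identical copies, to which short reads cannot be assigned with certainty.

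H3K4me1 marked few gene starts, mostly with H3K27ac. In the 3 libraries 46.0 to 63.1% of promoters with H3K4me1 lay in the H3K27ac set. Hyal2, C9, S100a1, S100a13 and Etnk1 led the H3K4me1 + H3K27ac set, and 6 named genes had both marks in all 3 libraries with no other mark. At Hyal2, a hyaluronidase gene, H3K4me1 peaks stood at the percentiles 75.7, 37.4 and 95.4 and H3K27ac peaks at 99.9, 99.3 and 93.4. At C9, a complement gene, they stood at 89.9, 67.0 and 96.9 for H3K4me1 and 71.0, 81.1 and 83.0 for H3K27ac. S100a1 and S100a13 share a divergent promoter and the same peaks. Fgfr3 and Tead4 belonged to this set too. Of the 75 promoters, 57 had the same set in DP and 22 in Oct4, against 670 and 386 of all 21911 promoters.

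H3K4me1 alone had the least support between libraries. Only 3 named genes had H3K4me1 in all 3 libraries and no other mark, and Blvrb and Sptbn4 share 1 of those regions. Blvrb, which encodes biliverdin reductase B, stood at the percentiles 52.3, 24 and 83.7, and Rps6ka2, a kinase downstream of ERK, at 81.4, 29.6 and 15.4. The list was filled by rank with Adamtsl5 and Ghrl, which encodes ghrelin. Of the 48 promoters, 12 had H3K4me1 alone in DP and 13 had H3K4me1 + H3K27ac, against 344 and 670 of all 21911 promoters.

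The 20 promoters of mixed sets were few enough to name. H3K27ac + H3K27me3 was found at Etnk2, Cldn4 and Slc25a23. At Etnk2, an ethanolamine kinase gene, the H3K27ac peaks were weak, at the percentiles 6.97 and 23.7 of replicates 1 and 2, while H3K27me3 stood at 9.89, 78.5 and 96.6. At Cldn4, a tight junction gene, H3K27ac stood at 37.0 and 79.7 in replicates 1 and 3 with its maximum 4354 and 4661 bp away from the gene start. At Slc25a23, a mitochondrial carrier gene, H3K27ac stood at 25.9 and 15.0 in the same replicates. None of the 3 had H3K27ac in all libraries.

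H3K4me1 + H3K27me3 was found at Gdf6, Pparg, Rnf122 and Klf12. At Pparg, the nuclear receptor gene of fat cells, H3K4me1 stood at the percentiles 24.8 and 59.4 of replicates 2 and 3 and H3K27me3 at 91.0, 80.9 and 64.9, with maxima 537 bp from the gene start in all 3 H3K27me3 libraries. Gdf6 encodes a BMP family ligand. H3K27me3 + H3K9me3 was found at Nbl1, a secreted BMP antagonist, and at AW822073.

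H3K27ac + H3K9me3 was found at Peg3, Usp29, Psmd14, Amn1, Zfp280d, Senp6, Slc29a3, Csrp2, Ncapg2, Il3ra and Rrn3. Peg3 and Usp29 are imprinted neighbours that start close together on opposite strands, so both were read from the same peaks, within chr7:6723545-6731258. There H3K27ac stood at the percentiles 68.8, 93.1 and 70.2 and H3K9me3 at 96.2 and 88.6 in replicates 1 and 3. Peak lists do not separate the parental alleles, so marks on opposite alleles and marks on 1 allele cannot be told apart. At Zfp280d all 6 libraries had a peak, and the H3K9me3 maxima lay 2544, 2364 and 2402 bp from the gene start against 418, 54 and 364 bp for H3K27ac. At Psmd14, a proteasome lid subunit, the H3K9me3 peaks stood at only 30 and 45.5.

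The marks were compared, library by library, in how often they met another mark at promoters. These tests ask whether the other marks differ in overlap. They do not test an overlap against the share of all promoters, and they use the same Pdgfra lists that define the combinations. The promoters of each library were compared with the set called for another mark, whose libraries were different ones. Of promoters with H3K4me1, 53.2% ± 8.85 lay in the H3K27ac set (SD, n = 3). The share was 4.84% ± 0.665 for H3K9me3 and 0.475% ± 0.393 for H3K27me3, against 18.4% of all promoters. The groups did not overlap (exact permutation test over all assignments, p = 0.00357, the smallest possible, adjusted p = 0.00714 over 4 tests). Of promoters in the H3K27ac libraries, 0.0742 to 0.262% lay in the H3K27me3 set, against 1.54 to 5.50% for H3K4me1 and 0.797 to 0.973% for H3K9me3 (exact permutation test, adjusted p = 0.00714). This call was lost with every list held to the 1074 peaks of the shortest (exact permutation test, adjusted p = 1) and without any 1 of the H3K27ac or H3K9me3 libraries (exact permutation test, adjusted p = 0.0524). Of the H3K27ac promoters 1.79 to 2.15% lay in the H3K4me1 set, against 0.275 to 0.437% for H3K27me3 and 0 to 0.389% for H3K9me3 (exact permutation test, adjusted p = 0.0143, and 0.0714 with equal list lengths). For the H3K9me3 set the other 3 marks did not differ past the threshold (exact permutation test, p = 0.893). The set of a mark was the same for all libraries compared with it, so its own spread between replicates is not part of these p-values.

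As counts, 3 promoters had both H3K27ac and H3K27me3. The product of the shares of the pair would give 217, a ratio of 0.0138. The ratio was 0.288 for H3K27ac with H3K9me3 (11 against 38.2), 0.179 for H3K27me3 with H3K9me3 (2 against 11.2), 0.585 for H3K4me1 with H3K27me3 (4 against 6.83) and 3.21 for H3K4me1 with H3K27ac (75 against 23.3). These ratios describe the sets and carry no test. Within 5 kb of the gene start on either side, H3K27me3 was called near 0.279% of promoters with H3K27ac alone and near 2.76% of promoters with no mark. H3K27ac was called near 0.684% of promoters with H3K27me3 alone and near 2.95% of those with no mark. All these sets lack the mark in the promoter window itself by definition, so the values describe the flanks only.

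Mixed marks were rarer in Pdgfra than in the other populations at the lists' full length. H3K27ac + H3K27me3 was called at 161 promoters in DP and 184 in Oct4. Of promoters in the H3K27me3 libraries, 0.475% ± 0.393 lay in the H3K27ac set in Pdgfra, 6.79% ± 0.758 in DP and 11.1% ± 0.273 in Oct4 (SD, n = 3 each, exact permutation test of the F statistic over the 3 populations, adjusted p = 0.00612 over 12 tests). The difference of Pdgfra from the other 6 libraries passed too (exact permutation test over 84 splits, adjusted p = 0.0357). For H3K9me3 libraries the share was 4.84% ± 0.665, 10.8% ± 0.555 and 23.2% ± 1.67 (exact permutation tests, adjusted p = 0.00612 over the populations and 0.0408 for Pdgfra against the others). The H3K27ac set was smaller in Pdgfra (4026 promoters) than in DP (6642) and Oct4 (6981). Divided by the share of all promoters in the set, the H3K27me3 overlap was 0.0258 ± 0.0214, 0.224 ± 0.0250 and 0.350 ± 0.00858, and the difference kept its direction (adjusted p = 0.00612 by the exact permutation test). With every library held to 1074 peaks, however, the difference in H3K27me3 overlap was lost (-0.0653 percentage points, adjusted p = 0.429 by the exact permutation test), as was that of H3K9me3 (-0.479 points, adjusted p = 0.695). List length moved with population and its part in the difference at full length was not tested further.

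**Figure D3:**
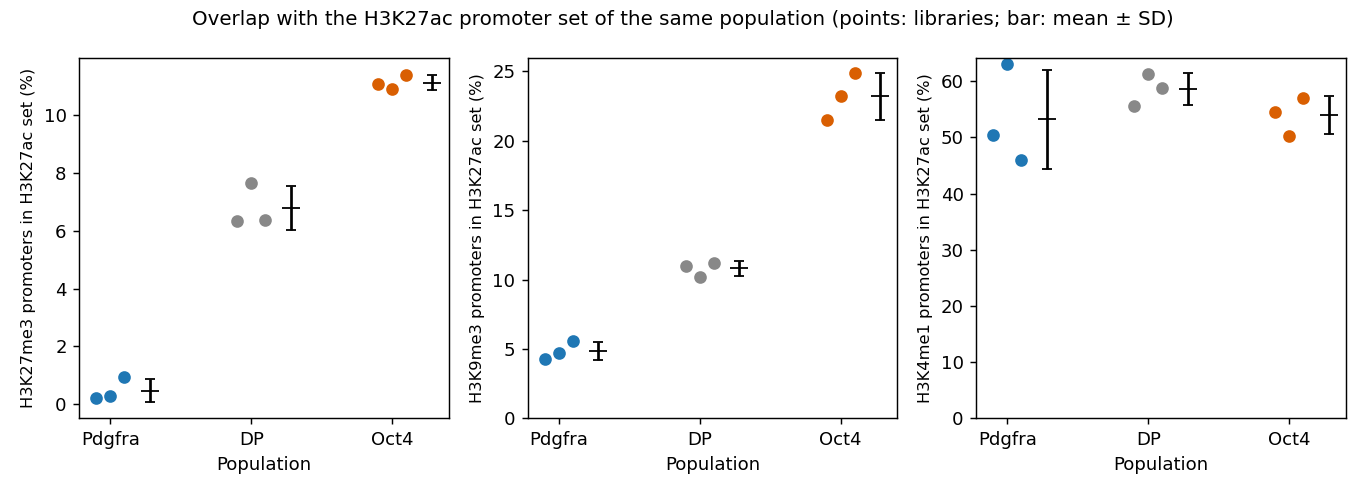
Percent of the promoters of each H3K27me3, H3K9me3 and H3K4me1 library that lie in the H3K27ac promoter set of the same population, for Pdgfra, DP and Oct4. Points are the 3 libraries and bars are the mean ± SD. The Pdgfra libraries lie below the others for H3K27me3 (0.218 to 0.927%) and H3K9me3 (4.28 to 5.58%), while the H3K4me1 libraries overlap between populations.

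H3K4me1 overlap with H3K27ac was 53.2% ± 8.85 in Pdgfra, 58.5% ± 2.88 in DP and 54.0% ± 3.43 in Oct4, with no difference past the threshold (exact permutation test, adjusted p = 0.493). That result was not stable, since it passed the threshold in both directions with other choices. Without H3K27ac replicate 1 of Pdgfra the difference was -11.4 percentage points (exact permutation test, adjusted p = 0.0107). Without 1 H3K27ac library of DP (replicate 1 or 3) it was 13.1 or 13.2 points (exact permutation tests, adjusted p = 0.0429 for both), and without 1 of Oct4 (replicate 1 or 2) 11.9 or 12.1 points (adjusted p = 0.0190 for both). With all 3 libraries required it was 17.9 points (exact permutation test, adjusted p = 0.00857). Relative to the size of the set, the overlap was higher in Pdgfra (adjusted p = 0.00612 by the exact permutation test), at 2.89 ± 0.481, 1.93 ± 0.0950 and 1.69 ± 0.108. The overlap of H3K4me1 with H3K27me3 was 3.18% ± 2.07 in Pdgfra against 15.0% ± 0.563 and 18.2% ± 4.21 (exact permutation test, adjusted p = 0.0161, and 0.0571 with equal list lengths). The share of promoters with a peak did not differ past the threshold between populations for any of the 4 marks (exact permutation tests, adjusted p from 0.690 to 0.939), and the spread between replicates was large. For H3K27ac it was 19.0% ± 3.41 in Pdgfra, 26.3% ± 13.5 in DP and 32.2% ± 13.9 in Oct4.

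Most promoters with H3K27ac alone or H3K27me3 alone in Pdgfra had the same set in DP and in Oct4. Over all 21911 promoters, H3K27ac alone was called at 5737 in DP and 6313 in Oct4, and H3K27me3 alone at 2847 and 1676. Of the 3937 promoters with H3K27ac alone, 3399 (86.3%) had H3K27ac alone in DP and 404 (10.3%) had H3K4me1 + H3K27ac there. In Oct4, 3300 (83.8%) had H3K27ac alone and 352 (8.94%) had no mark. Of the 1170 promoters with H3K27me3 alone, 1062 (90.8%) had the same set in DP. In Oct4 684 (58.5%) did, 273 (23.3%) had no mark and 83 (7.09%) had H3K27ac + H3K27me3. Library by library, 90.8, 97.3 and 94.7% of them had an H3K27me3 peak in DP, where the mean over all promoters was 14.5%. In Oct4 42.0, 69.4 and 90.2% of them did, where that mean was 9.71%. The DP and Oct4 values did not overlap, but 3 libraries against 3 cannot give a two-sided p below 0.10 (exact permutation test, p = 0.10, adjusted p = 0.60 over 8 tests). None of the 8 tests passed the threshold. H3K27ac reached 14.4, 36.2 and 1.79% of these promoters in Oct4 and 3.16, 0.0855 and 3.16% in DP, with replicate 3 of Oct4 inside the DP range. Over all promoters the mean H3K27ac share was 32.2% in Oct4 and 26.3% in DP.

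Of the 195 promoters with H3K9me3 alone, 91 (46.7%) had the same set in DP and 53 (27.2%) in Oct4. Over all 21911 promoters that set was called at 160 in DP and 209 in Oct4. H3K27ac alone was found at 5 of the 195 in DP (2.56%) and 19 in Oct4 (9.74%), against 5737 and 6313 of all 21911. Itln1 had H3K27ac alone in Oct4, and Orc2 had H3K27ac + H3K9me3 there. Of the 16466 promoters with no mark in Pdgfra, 11634 (70.7%) had none in DP and 11952 (72.6%) had none in Oct4. Of all 21911 promoters, 11786 had none in DP and 12698 in Oct4. A further 2308 of the 16466 (14.0%) had H3K27ac alone in DP and 1764 (10.7%) had H3K27me3 alone. In Oct4 2918 (17.7%) and 926 (5.62%) did. The same counts over all 21911 promoters were 5737 and 2847 in DP and 6313 and 1676 in Oct4.

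The sequence of the promoter window, which the rule did not use, differed between marks. The median CpG ratio (CpG found over CpG expected from C and G content) was 0.643, 0.641 and 0.648 in the H3K27ac libraries, 0.546, 0.508 and 0.434 for H3K27me3, 0.440, 0.368 and 0.509 for H3K4me1, and 0.207, 0.274 and 0.298 for H3K9me3. H3K27ac lay above and H3K9me3 below all other libraries (exact permutation test, p = 0.000325, adjusted p = 0.000541). GC content was highest for H3K27me3, at 55.3% ± 1.32, with 53.3% ± 0.319 for H3K27ac, 53.0% ± 0.454 for H3K4me1 and 46.2% ± 0.961 for H3K9me3 (SD, n = 3 each, exact permutation test, adjusted p = 0.000541). The H3K27ac and H3K4me1 ranges overlapped in GC content, so these neighbours were not separated.

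Over the sets, a CpG ratio above 0.6 was found in 60.7% of promoters with H3K27ac alone, 34.2% with H3K27me3 alone, 20% with H3K4me1 + H3K27ac, 10.8% with H3K9me3 alone and 26.3% of all promoters. Divergent promoters, with another protein-coding start on the opposite strand within 1000 bp upstream, made up 18.7% of promoters with H3K27ac alone, 1.20% of those with H3K27me3 alone, 0 of 195 with H3K9me3 alone and 6.76% of all. Repeat-masked bases took a median of 20.8% of the window with H3K9me3 alone and 10.8% with H3K27ac alone, against 15.5% over all promoters. Genes with H3K9me3 alone were short, with a median of 9.60 kb against 17.4 kb for all genes, 23.5 kb with H3K27ac alone and 24.3 kb with H3K27me3 alone. These are descriptions over promoters, which are not replicates.

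**Figure D4:**
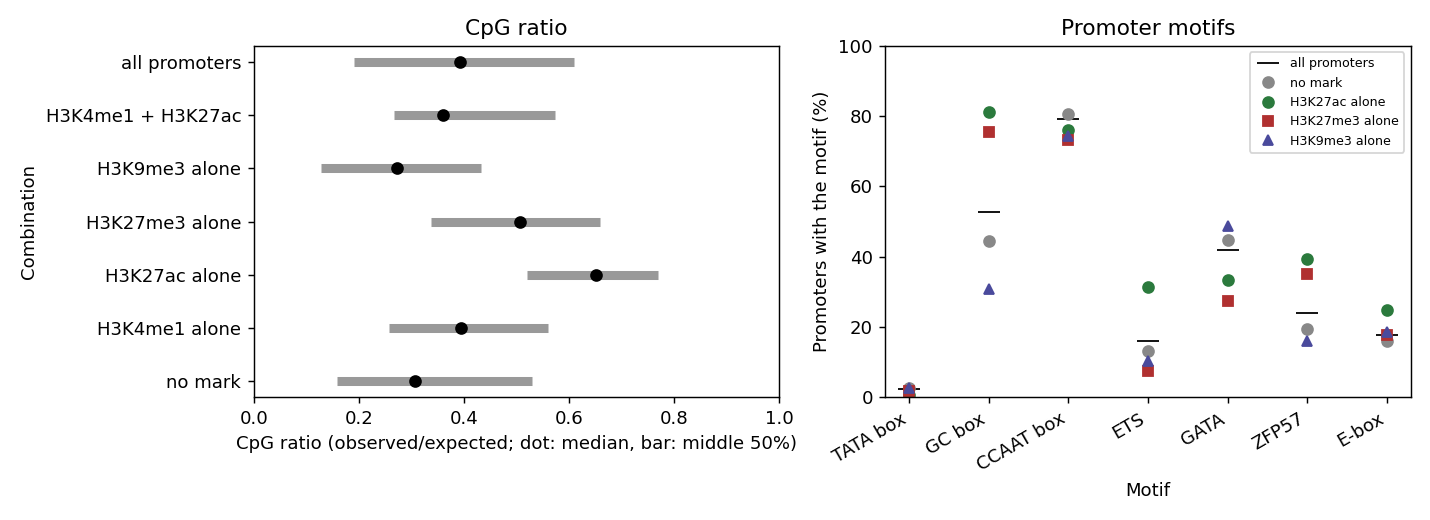
Sequence of the promoter windows by combination: left, median CpG ratio with the middle 50% of promoters; right, percent of promoters that hold each motif on either strand. GC boxes are at 81.1% of promoters with H3K27ac alone and 30.8% with H3K9me3 alone, and the ETS motif at 31.3% with H3K27ac alone and 7.61% with H3K27me3 alone.

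Short motifs were searched as exact letters on both strands of the window. GGGCGG, the GC box, was present in 81.1% of promoters with H3K27ac alone, 75.6% with H3K27me3 alone and 30.8% with H3K9me3 alone, against 52.7% of all promoters. CCGGAAG, the core of ETS factor sites, was present in 31.3% with H3K27ac alone and 7.61% with H3K27me3 alone, against 16.0% of all. CACGTG, the E-box of MYC and related factors, stood at 24.9% and 17.6% in these sets, against 17.7%. AGATAA, read by GATA factors, was less frequent with H3K27ac alone (33.3%) and H3K27me3 alone (27.4%) than in all promoters (41.8%). It is mostly A and T, and median GC content was 53.5% and 55.8% in these sets, against 49.0% over all promoters. Its share is thus not independent of base content. TGCCGC, the core read by ZFP57 when methylated, was in 15.9% of promoters with H3K9me3 alone and 23.9% of all. CCAAT was in 76.0% with H3K27ac alone and 79.2% of all. TATAAA, searched on the gene's strand only 40 to 20 bases upstream, was in 0.787% of promoters with H3K27ac alone and 2.27% of all. The first 3 motifs hold CpG, as does TGCCGC, so their shares are not independent of CpG content, and a match is not a bound site.

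The gate was checked against markers. PDGFRA is also made by fibroblasts, on which the cultures were grown. None of 20 fibroblast genes, including Col1a1, Col1a2, Col3a1, Twist1, Prrx1 and Thy1, had a called mark in Pdgfra, where 75.1% of all promoters had none. No Pdgfra library listed an H3K27ac or H3K4me1 peak at any of the 20. Of all 21911 promoters, 16197 had no H3K27ac peak and 20318 no H3K4me1 peak in any Pdgfra library. Twist1, Twist2, Prrx1, Thy1, Col1a1, Col6a3, Fbn1, Loxl1 and Snai2 had H3K27me3 in a single Pdgfra library. H3K27ac was called at 0 of the 20 in DP and 1 in Oct4, so its absence was not particular to Pdgfra. The endoderm label rested on the 11 promoters described above, and DP had H3K27ac at more of that list (17 of 25). Sox17, Hnf4a, Dab2, Sparc, Ttr and Afp lacked H3K27ac in every Pdgfra library at the annotated start used. The X chromosome was sparse: it held 436 of 88735 Pdgfra peaks (0.491%) and 4.33% of protein-coding promoters. Only 21 of its 948 promoters (2.22%) had a mark, against 24.9% of all promoters. The part of that chromosome in the other results was not tested.

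**Figure D5:**
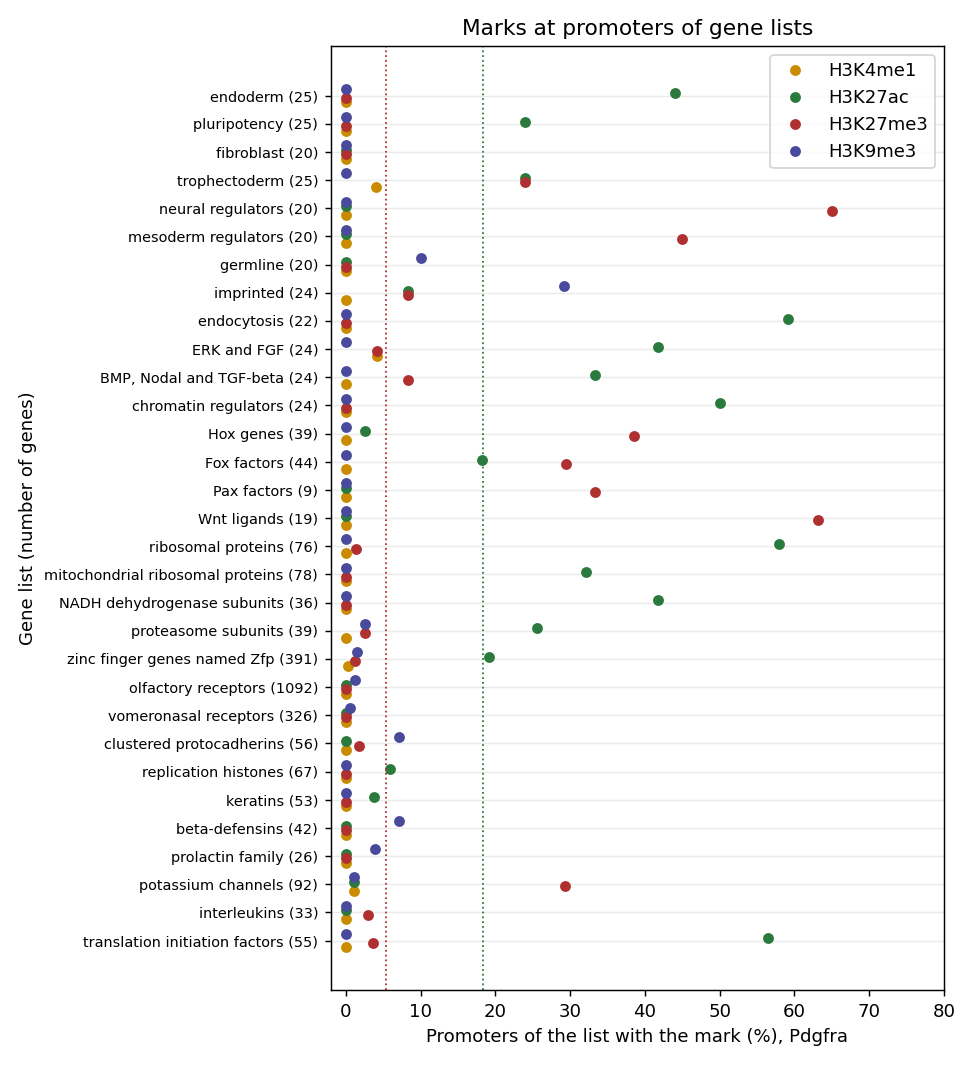
Percent of the promoters of each gene list with H3K4me1, H3K27ac, H3K27me3 or H3K9me3 in Pdgfra cells, with the number of genes in brackets. Dotted lines are the shares of all promoters with H3K27ac (18.4%) and H3K27me3 (5.38%), and Rhox genes, all at 0, are left out. Housekeeping and endocytosis lists stand to the right for H3K27ac, and neural regulators (65.0%) and Wnt ligands (63.2%) for H3K27me3.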

How the data were processed

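CUT&Tag libraries of 4 histone marks were analysed in Pdgfra, DP and Oct4 nEnd cells, with 3 replicates of each. H3K4me3 was not analysed here, and 3 IgG samples were not used here. According to the submitters' processing notes and the study's methods, libraries were amplified by 14 PCR cycles and sequenced paired-end on a NextSeq 500, and reads were demultiplexed with bcl2fastq 2.19.1, aligned with Bowtie2 to mm10 (GRCm38), handled with SAMtools 1.12 and deepTools, turned into coverage with bedtools 2.26.0, and peaks were called by SEACR per library against IgG in stringent mode. The deposited values are the total and maximum signal of each peak, made by the authors from read coverage. Whether coverage was scaled to depth, and the depth itself, are not given in the sources used here, so signals were compared only as percentiles within a library's own list. Calls depend on list length, which ranged from 1074 to 29970 peaks in Pdgfra.

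Gene starts were those of 21911 protein-coding genes of GENCODE M21. Of 21938 gene records, 27 with a repeated symbol were set aside. A promoter held a mark in a library when any peak overlapped it by at least 1 bp, and in a population when 2 of 3 libraries had one. The 5 genes named per larger combination had a peak in all 3 libraries, no other mark in any Pdgfra library, and the highest mean percentile of total signal, and sets too small for this were filled by rank. All members of sets under 20 promoters were named. Other genes come from 32 lists, of which some members are not reported here. Members and lists were chosen with earlier results of these data known. Library values were compared by exact permutation tests, with Benjamini-Hochberg adjustment within each family and a threshold of 0.05. The steps were tested on simulated lists with known marks. Alternatives were other library minimums, promoter windows, overlaps and peak cut-offs, leaving out each Pdgfra library, and, chosen after seeing the data, division by set size, a test of Pdgfra against the other 6 libraries, leaving out each DP and Oct4 library, and leaving out the third replicates of H3K4me1 and H3K27me3 together.

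The sources do not say whether replicate numbers pair the samples, and the data did not settle it. Over 36 same-numbered pairs of populations of a mark, deviations from the group means correlated from -0.320 to 0.372, with 9 of 36 over 0.1. Over 72 pairs with other numbers the range was -0.387 to 0.333, with 18 over 0.1. For H3K27me3 in Pdgfra and Oct4, same-numbered pairs gave 0.372, 0.0548 and 0.370, and other pairs -0.387 to 0.143. Over 18 same-numbered pairs of marks within Pdgfra the range was -0.0541 to 0.0284. Analyses used Python 3.11.15, NumPy 2.4.6, pandas 2.3.3, Matplotlib 3.10.9 and bedtools 2.31.1.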

Additional observations from a re-analysis of the deposited data

Results flagged for a closer look

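Of 12 comparisons of mark overlap between populations, 9 differed among the 3 populations by the exact permutation test of the F statistic, all with a lower mean in Pdgfra than in DP and Oct4 together. Tested as the difference of Pdgfra from the other 6 libraries, 7 of the 9 passed (exact permutation test over 84 splits, adjusted p from 0.0357 to 0.0408), and H3K27ac in H3K9me3 (adjusted p = 0.0536) and H3K9me3 in H3K4me1 (adjusted p = 0.0714) did not. In percentage points, the differences were -8.49 for H3K27me3 libraries in the H3K27ac set, -12.1 for H3K9me3 in H3K27ac, -13.4 for H3K4me1 in H3K27me3, -5.32 for H3K9me3 in H3K27me3, -6.84 for H3K27ac in H3K4me1, -5.53 for H3K27me3 in H3K4me1, -2.09 for H3K9me3 in H3K4me1, -0.378 for H3K27ac in H3K9me3 and -0.297 for H3K27me3 in H3K9me3. In the last of these the Pdgfra libraries ranged from 0 to 0.412%, below the DP range of 0.465 to 0.542% and the Oct4 range of 0.462 to 0.697%. The sets of other marks were smaller in Pdgfra for H3K4me1 (127 promoters against 1187 in DP and 764 in Oct4), H3K27ac (4026 against 6642 and 6981) and H3K27me3 (1179 against 3189 and 2000). For H3K9me3 the set held 208 promoters against 200 in DP and 279 in Oct4. With every library held to the same number of peaks, 8 of the 9 no longer passed, and only H3K27me3 libraries in the H3K4me1 set still did. The part of list length at full length was not tested beyond that comparison.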

How the results depend on the processing

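Leaving out 1 library gave 732 values apart from the Oct4 and DP comparisons at Pdgfra sets, whose smallest possible p cannot pass. By the rule used, 700 were unchanged and 32 changed. A tested value changed if it crossed the threshold, or if its sign turned and it passed with or without the library. Sign changes where neither value passed, as for the width difference, were counted as unchanged. Combination counts carry no test and were judged by a fixed limit on their ratio to the main count. The ranges over single left-out libraries were 334 to 1174 promoters for H3K27me3 alone, 79 to 199 for H3K9me3 alone, -672 to 2673 bp for the width difference of H3K27me3 and H3K27ac, and 1.07 to 3.82 points for overlap with the H3K27me3 set within Pdgfra. Between populations they were -11.4 to 13.2 for H3K4me1 in H3K27ac, where 4 left-out H3K27ac libraries of DP and Oct4 reversed the sign (13.1, 13.2, 11.9 and 12.1), -3.93 to -2.35 for H3K27ac in H3K27me3, -0.431 to -0.0884 for H3K27me3 in H3K9me3 and -2.31 to -0.552 for H3K9me3 in H3K4me1. The cause of these changes was not tested.

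With at least 1 of 3 libraries, H3K27me3 alone held 2720 promoters and H3K9me3 alone 500, and with all 3 they held 337 and 74. In all 3 libraries, the difference of H3K4me1 in H3K27ac was 17.9 and that of H3K9me3 in H3K4me1 was -0.283. With the window from 2 kb upstream to 500 bp downstream H3K9me3 alone held 295 promoters, and the marks differed in overlap with the H3K9me3 set (0.153). With any annotated transcript start H3K9me3 alone held 338. With 50% of the window covered, overlap with the H3K27me3 set within Pdgfra no longer passed (2.71).

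With 1074 peaks per library, H3K27ac, H3K27me3 and H3K9me3 alone held 747, 487 and 40 promoters. Within Pdgfra, overlap with the H3K4me1 set (1.65) and the H3K27me3 set (0.513) no longer passed. Between populations, differences no longer passed for H3K4me1 in H3K27me3 (-3.26), H3K27ac in H3K4me1 (-3.11), H3K27ac in H3K9me3 (-0.0972), H3K27me3 in H3K27ac (-0.0653), H3K9me3 in H3K27ac (-0.479), and H3K9me3 in H3K4me1 and in H3K27me3 (both 0), and H3K27me3 in H3K9me3 was 0.0804. With the 50% of peaks of highest signal, the 3 single-mark sets held 1982, 720 and 126 promoters, and overlap with the H3K27me3 set within Pdgfra (1.38) and H3K27me3 in H3K9me3 between populations (-0.107) no longer passed.

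In the fit with a replicate block, H3K4me1 in H3K27me3 (-13.4, adjusted p = 0.0833 by the exact permutation test) and H3K27me3 in H3K9me3 (-0.297, adjusted p = 0.148) no longer passed, and 31 other results were on the same side. Whether the numbers pair these samples is not known. Divided by set share, an alternative chosen after seeing the data, H3K4me1 in H3K27ac was 1.08 and H3K27ac in H3K4me1 1.40, both higher in Pdgfra, and H3K27me3 in H3K9me3 (-0.251) and H3K9me3 in H3K4me1 (-0.243) no longer passed. Tested as Pdgfra against the other 6 libraries, also chosen after seeing the data, H3K27ac in H3K9me3 (-0.378) and H3K9me3 in H3K4me1 (-2.09) no longer passed. Without the third replicates of H3K4me1 and H3K27me3, H3K27me3 alone held 336 promoters. Promoters with 2 or more marks, 95 in all, numbered 9 when all 3 libraries were required and 1237 with at least 1. They numbered 343 with any transcript start and 15 with 1074 peaks per library. Unknown depth means that a promoter without a peak is not shown to lack the mark.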
